A study of Mus musculus with 12 samples.

Results

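Autophagy carries cell material to the lysosome for breakdown, and the genes described here encode its machinery together with the core lysosomal proteins of the dorsal hippocampus. They were taken by name from a table of 24985 genes. The names were those beginning Atg and a digit, the V-ATPase subunits (Atp6v), the cathepsins (Cts and a letter), Lamp1 and Lamp2, the Gabarap and Map1lc3 genes, Wipi genes, Ulk1 and Ulk2, with Retreg1, Sqstm1, Becn1 and Tfeb added. Of 75 rows that matched, 60 had a mean raw count of 10 or more over the 12 mice and are the members. The lowest of these was Atp6v0c with a mean count of 27.25, and the highest of the 15 left out was Atp6v1c2 with 6.58. All 60 members passed the filter on low counts, which kept 14742 genes for testing.

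The study asked how raised acetate and pathological tau together act on the hippocampus and on memory. The 12 mice fell into 4 groups of 3, all C57Bl6/J, labelled male, wild-type by the study's account, and injected in 1 hemisphere at 6 months of age with PBS or with 1 ug of AD-Tau, which is tau purified from the brains of patients with Alzheimer's disease. For 6 months after injection the mice ate either the control diet, a standard chow from TestDiet, or a LabDiet chow to which Na-acetate had been added at 5%, the high acetate diet. These make the groups PBS control, tau control, PBS acetate and tau acetate. Dorsal hippocampus of the right hemisphere was taken the day after a remote memory test and its polyadenylated RNA was sequenced. The injected protein is extracted from patients, and the mice carry no tau transgene in the labels. Neither the labels nor the study's methods say that mice were pooled for these libraries.

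Totals ran from 12983233 to 20218340 counts per mouse. Levels are given in CPM, counts scaled to a common library size, in which 1 read was worth 0.0496 to 0.0772 CPM. Members took 0.826% to 0.913% of the counts of a mouse, with group means of 0.886% in PBS control, 0.848% in PBS acetate, 0.877% in tau control and 0.856% in tau acetate. Xist, transcribed from an inactive X chromosome, was counted in 12 of 12 libraries, with at least 13583 counts, and the 8 Y-linked genes looked up had 0 counts, which goes against the sex label in every group alike. Neuron markers were high in every mouse (summed level of 5 genes 11088 to 12558 CPM). In 1 tau acetate mouse, replicate 3, the 5 choroid plexus markers summed to 477 CPM, against 64 to 202 CPM in the other 11.

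In autophagy a cup-shaped membrane grows around its cargo, closes into an autophagosome and fuses with a lysosome. Kinases of the Ulk family and the Becn1 complex start the process, Atg9 proteins and the Atg2 lipid carriers supply membrane, and Atg conjugation enzymes fix proteins of the Atg8 family (Gabarap and Map1lc3) to it. Receptors such as Sqstm1 and Retreg1 (also called FAM134B) tie cargo to the Atg8 proteins, and Retreg1 does so for sheets of endoplasmic reticulum. In the lysosome the V-ATPase pumps protons, cathepsins cut proteins, and Lamp1 and Lamp2 line the membrane. Tfeb switches on many of these genes by binding a short promoter motif. Neurons depend on the pathway because they do not divide and so cannot dilute damaged material.

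Per kilobase of exon, Gabarapl1 had the highest level, 308 CPM per kb averaged over the 12 mice. Atp6v1g2, a V1 subunit enriched in neurons, followed with 185 CPM per kb, then Atp6v0e2 with 142, Ctsd with 142, and the cargo receptor Sqstm1 with 133 CPM per kb. Of the 2351 exon bases of Ctsd, 808 overlap Gm49369 on the same strand, so its level per length may be too low. Lamp1 stood ninth with 105 CPM per kb. The conjugation enzymes lay far lower, led by Atg3, and Tfeb was at 1.54 CPM per kb. Atp6v0c, the proton-binding ring subunit, came last with 0.505 CPM per kb, and each mouse had only 1.08 to 2.56 CPM of it. Near-identical copies of Atp6v0c exist in the genome and reads shared between copies may not have been counted, so this level is uncertain.

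**Figure D1:**
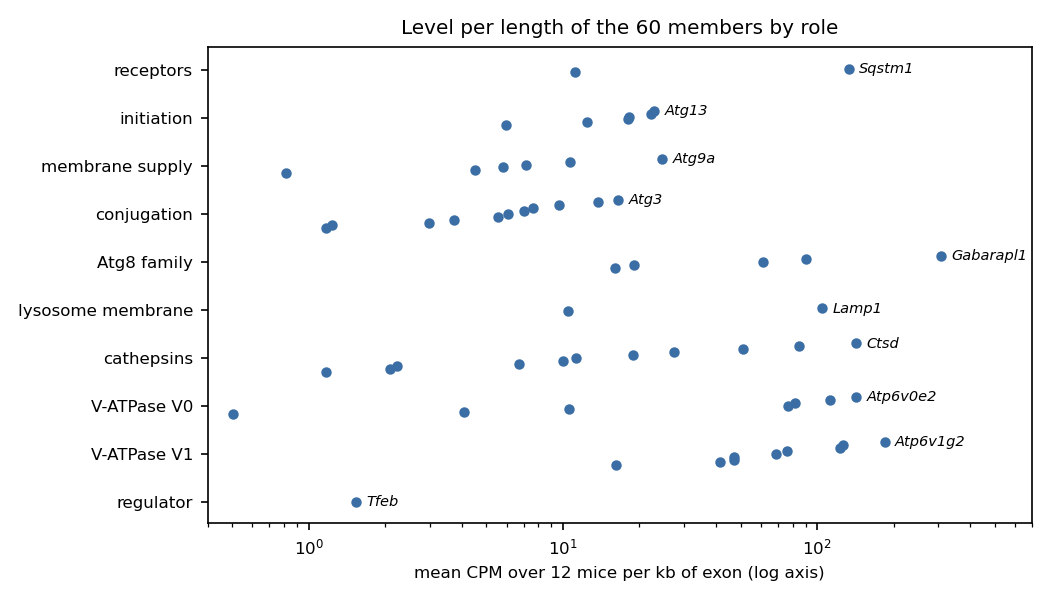
Mean CPM over 12 mice divided by the exon length of the gene in kb, on a log axis, 1 point per member, in rows by role. The highest member of each row is named, and Gabarapl1 lies farthest right at 308 CPM per kb.

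The inner part of the motif bound by Tfeb, TCACGTGA, was looked for on both strands in RefSeq promoter windows (GRCm38.p6, 250 bases before to 50 after a start), together with the shorter E-box CACGTG that lies within it. Both read the same on either strand. A window was found for 49 of the 60 members. TCACGTGA lay in 6 of them (12.2%), against 1.12% of all 27025 genes with a window and 2.04% of the 11505 tested genes with a window. CACGTG lay in 14 of the 49 (28.6%), against 8.09% and 11.4%. Such a match describes letters and no binding was measured. The 6 members were Atg3, Atp6v0d1, Atp6v0e, Atp6v1a, Ctsa, with 2 sites, and Ctsd. Their sites are shown because they link conjugation, proton pump and protease genes by sequence, 5′ to 3′ on the strand of the gene, with the motif in capitals. They lie at chr16:45158746-45158775 (Atg3, plus strand), chr8:105566050-105566079 (Atp6v0d1, minus), chr17:26676387-26676416 (Atp6v0e, plus), chr16:44139373-44139402 (Atp6v1a, minus), chr2:164833749-164833778 and chr2:164833766-164833795 (Ctsa, plus) and chr7:142387908-142387937 (Ctsd, minus).
Atg3: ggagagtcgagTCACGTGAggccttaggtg
Atp6v0d1: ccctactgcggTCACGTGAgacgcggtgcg
Atp6v0e: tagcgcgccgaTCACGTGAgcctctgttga
Atp6v1a: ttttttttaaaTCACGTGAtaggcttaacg
Ctsa first site: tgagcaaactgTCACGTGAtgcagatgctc
Ctsa second site: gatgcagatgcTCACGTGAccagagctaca
Ctsd: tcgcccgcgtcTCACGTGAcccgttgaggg

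Among the members whose level differed between groups, Lamp1 and Atg5 held the E-box but not the longer motif. The window of Lamp1 carried 4 E-boxes in the last 72 bases before its start (chr8:13159089-13159160, plus strand), in capitals below. That of Atg5 carried 1 (chr10:44268314-44268341, plus strand). Of the 4 windows of Retreg1, 1 held an E-box, at a start inside the gene (chr15:25942480-25942507, plus strand). The letters were absent from the windows of Ulk2 and Atg4c, and Atp6v1b2 had no window.
Lamp1: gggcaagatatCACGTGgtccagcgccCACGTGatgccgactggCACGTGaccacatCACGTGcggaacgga
Atg5: ggagcgcttgcCACGTGgtcttggtgac
Retreg1 internal start: agggctgctgtCACGTGcagcagcatta

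Retreg1, the receptor that delivers endoplasmic reticulum to autophagosomes, lies on chromosome 15 from 25843180 to 25973687 on the plus strand (GRCm38). Its level was 53.85, 57.45 and 57.69 CPM in the PBS control mice and 41.98, 39.86 and 38.78 CPM in the PBS acetate mice. The tau control mice had 42.62, 40.46 and 48.83 CPM, and the tau acetate mice 47.77, 44.41 and 43.10 CPM. The PBS control mice were thus above the 9 others, which ran from 38.78 to 48.83 CPM. Group means were 56.3 ± 2.15 CPM in PBS control, 40.2 ± 1.63 in PBS acetate, 44.0 ± 4.35 in tau control and 45.1 ± 2.41 in tau acetate (SD, n = 3 mice each).

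Retreg1 was lower on the acetate diet in PBS-injected mice, with a log2 fold change of -0.49 (SE 0.0733, edgeR quasi-likelihood adjusted p = 0.00567). It had the seventh smallest p of all genes tested. Retreg1 was added by name with earlier results of these data known, so its rank and p-values are not independent support. In tau-injected mice the diet difference was 0.04 (SE 0.0739, adjusted p = 0.906). The diet effect differed between injections by 0.53 (SE 0.104, adjusted p = 0.0466). Tau against PBS gave -0.36 on the control diet (SE 0.0737, adjusted p = 0.231), where the groups did not overlap, and 0.17 on the acetate diet (SE 0.0735, adjusted p = 0.442). DESeq2 gave an adjusted p of 0.0227 for tau on the control diet, so that call depends on the tool. Retreg1 passed the diet test in PBS-injected mice in 12 of 12 fits that left out 1 mouse. The difference between injections passed in 10 of 12, with adjusted p up to 0.146, and was lost without PBS acetate replicate 2 or tau acetate replicate 1.

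Lamp1, an abundant glycoprotein of the lysosomal membrane, followed with a smaller range (chromosome 8, 13159161 to 13175338, plus strand). PBS control mice had 303.1, 286.0 and 300.8 CPM, PBS acetate mice 271.5, 263.0 and 264.5 CPM, tau control mice 268.5, 264.8 and 263.2 CPM, and tau acetate mice 302.3, 293.1 and 278.0 CPM. Both PBS control and tau acetate lay wholly above the other 2 groups. The diet difference was -0.16 in PBS-injected mice (SE 0.0469, edgeR adjusted p = 0.0668) and 0.13 in tau-injected mice (SE 0.0469, adjusted p = 0.306), and these differed by 0.29 (SE 0.0664, adjusted p = 0.062). With 1 mouse left out, the diet call held in 7 of 12 fits, lost without PBS control replicate 1 or 3 or any 1 of the PBS acetate mice. The call on the difference held in 8 of 12, lost without PBS control replicate 1, PBS acetate replicate 2, tau control replicate 2 or tau acetate replicate 1. Exons of Lamp1 overlap Grtp1 on the other strand. The labels name a directional kit and the reads were counted by strand, while the study's methods name a kit without strand marking.

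**Figure D2:**
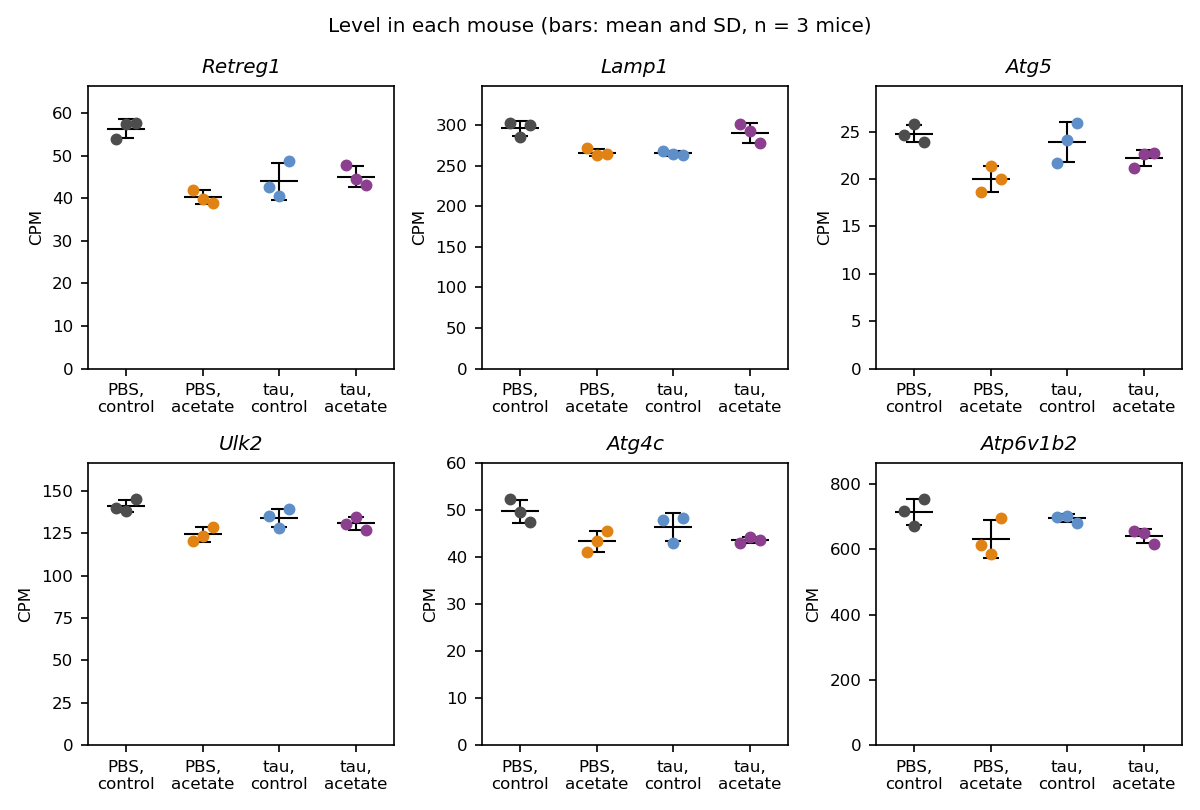
Level in CPM of the 6 members past the threshold for the diet in PBS-injected mice, 1 point per mouse, with the mean and SD of each group of 3 mice. In Retreg1 the PBS control mice sit at 53.85 to 57.69 CPM above all others, and in Lamp1 both PBS control and tau acetate sit above the remaining groups.

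Oligodendrocytes make the myelin of the hippocampus, and their markers are set here beside both genes. All 6 of those markers (Mbp, Mog, Mag, Mobp, Cnp, Cldn11) had estimates below 0 for the diet in the PBS-injected animals (median -0.51 on the log2 scale, 2 past the threshold). The same 6 had estimates below 0 with tau on the control diet (median -0.62, 0 past the threshold by edgeR, 6 at an unadjusted p under 0.05 and 1 past the threshold by DESeq2). With the diet in tau-injected mice all 6 estimates were above 0 (median 0.53, 0 past the threshold, 5 at an unadjusted p under 0.05, 0 by DESeq2), as was that of Lamp1 at 0.13, while Retreg1 stood at 0.04. Their summed level was 5069 to 6494 CPM in PBS control, 3196 to 4359 CPM in PBS acetate, 3374 to 4019 CPM in tau control and 3859 to 6195 CPM in tau acetate, and none of the markers was at 0. Their part in the differences of Retreg1 and Lamp1 was not tested. In bulk tissue, fewer cells of a type and less RNA per cell cannot be told apart.

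Tfeb, the regulator of the set, had its group means in the same order as Lamp1, an order that rested on 1 tau acetate mouse. Its values were 10.19, 10.50 and 9.48 CPM in PBS control, 8.78, 8.20 and 7.09 CPM in PBS acetate, 7.43, 7.76 and 7.48 CPM in tau control, and 11.75, 7.93 and 8.09 CPM in tau acetate. The high tau acetate value is that of replicate 1, the mouse with the highest oligodendrocyte sum in its group. Replicate 2, with a sum of 5515 CPM, had the lowest Tfeb of the group, below replicate 3 with a sum of 3859 CPM. The remaining tau acetate mice, at 7.93 and 8.09 CPM, lay within the PBS acetate range of 7.09 to 8.78 CPM. The place of the tau acetate mean above that of PBS acetate therefore rested on replicate 1. PBS control mice did not overlap PBS acetate or tau control mice. All tau acetate mice also lay above the tau control mice (0.30, edgeR adjusted p = 0.489). Tau on the acetate diet gave 0.21 (edgeR adjusted p = 0.656). None of the tests of Tfeb passed, with -0.32 for the diet in PBS-injected mice (SE 0.149, edgeR adjusted p = 0.22), -0.41 for tau on the control diet (SE 0.153, adjusted p = 0.396) and 0.63 for the difference in diet effect between injections (SE 0.213, adjusted p = 0.194).

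**Figure D3:**
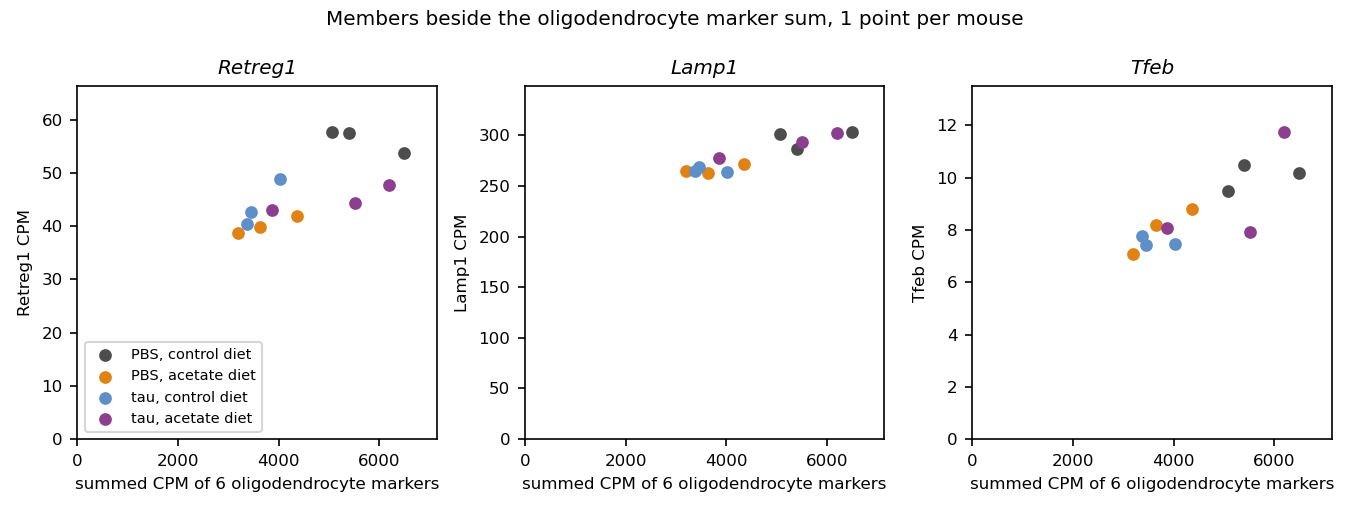
Level of Retreg1, Lamp1 and Tfeb in CPM against the summed CPM of 6 oligodendrocyte markers, 1 point per mouse, coloured by group. PBS control mice had marker sums of 5069 to 6494 CPM, and the PBS acetate and tau control mice lie to their left (3196 to 4359 CPM and 3374 to 4019 CPM). The tau acetate mice spread over both ranges (3859 to 6195 CPM), and replicates 1 and 2 lie as far right as PBS control with less Retreg1 (47.77 and 44.41 CPM), while replicate 1 has the highest Tfeb of all mice (11.75 CPM).

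In PBS-injected mice, 6 of the 60 members were lower on the acetate diet and 0 were higher. That is 10% of members in either direction, and 8.84% of all tested genes were called (4.85% lower, 3.99% higher), so the share called was near the background. Without Retreg1, added by name with earlier results known, it was 5 of 59 members (8.47%). The 6 were Retreg1, Lamp1, Atg5, Ulk2, Atg4c and Atp6v1b2. Without regard to the threshold, 45 of 60 members had estimates below 0, against 49.1% of all genes, and the median member stood at -0.06 against 0.00 for all genes. The diet groups did not overlap in 13 members, all lower in acetate, and 13.2% of all genes were lower without overlap. At an unadjusted p under 0.05 there were 14 members, against 20.8% of all genes. DESeq2 called 7 members, all lower, where it called 9.29% of all genes, with Atp6v1a and Ctsc in and Atg4c out. The count rests on single mice. It was 1, Retreg1 in each case, without PBS control replicate 1 or 3 or without PBS acetate replicate 1 or 2, and it was 9 without PBS acetate replicate 3.

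Markers of CA3 pyramidal neurons were also lower in this comparison. All 6 estimates were below 0 (median -0.84, 5 past the threshold), and the marker sum was 1417 to 1718 CPM in PBS control against 850 to 1258 CPM in PBS acetate. It was 1117 to 1342 CPM in tau control and 921 to 1346 CPM in tau acetate, so that the PBS control mice lay above the 9 others, as they did in Retreg1. The median CA3 estimate was -0.36 for tau on the control diet (1 of 6 at an unadjusted p under 0.05) and -0.22 for the diet in tau-injected mice (0 of 6), with all 6 below 0 in both, and 0.53 for the difference in diet effect between injections (1 of 6), with 0 called by edgeR or DESeq2 in any of these. For CA1 markers 4 of 5 estimates were above 0 with the diet in PBS-injected mice, 3 of them past the threshold, and the sums were 451 to 580 CPM in PBS control, 705 to 932 in PBS acetate, 599 to 757 in tau control and 645 to 926 CPM in tau acetate. None of either list was at 0 in the file. The part of these neuron classes in the values of Retreg1 and in the 6 calls was not tested.

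Atg5 forms the conjugate with Atg12 that fixes Atg8 proteins to membrane (chromosome 10, 44268358 to 44364291, plus strand). It had 24.68, 25.79 and 23.97 CPM in PBS control and 18.60, 21.35 and 20.00 CPM in PBS acetate, without overlap. The log2 fold change was -0.31 (SE 0.0859, edgeR adjusted p = 0.0512), and the call held in 7 of 12 fits that left out 1 mouse. It was lost without any 1 of the PBS control mice and without PBS acetate replicate 1 or 2. Tau control mice had 21.71, 24.14 and 25.94 CPM and tau acetate mice 21.21, 22.69 and 22.74 CPM, which overlapped.

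Atg4c encodes a protease that trims Atg8 proteins before and after conjugation (chromosome 4, 99193934 to 99259787, plus strand). It fell from 52.34, 49.65 and 47.47 CPM in PBS control to 41.20, 43.47 and 45.68 CPM in PBS acetate (log2 fold change -0.20, SE 0.0672, edgeR adjusted p = 0.0978). This call held in 3 of 12 fits with 1 mouse left out, those without tau control replicate 2 or 3 or PBS acetate replicate 3. The remaining 9 conjugation genes were not called, and 5 of the 11 had estimates above 0, among them Atg7 at 0.14 (adjusted p = 0.33).

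Ulk2, a kinase that starts autophagosome formation, fell with the diet from 139.9, 138.1 and 145.0 CPM to 120.7, 123.4 and 128.9 CPM (chromosome 11, 61775649 to 61855073, minus strand). Its log2 fold change was -0.18 (SE 0.051, edgeR adjusted p = 0.0527), and the call held in 8 of 12 fits with 1 mouse left out. It was lost without PBS control replicate 1 or 3 or PBS acetate replicate 1 or 2. Its close relative Ulk1 stood at -0.06 (SE 0.0593, adjusted p = 0.591) and Becn1, the scaffold of the lipid kinase complex, at 0.04 (adjusted p = 0.684). Of 6 initiation genes, 1 was called. Atg13, the Ulk partner with the highest level per length in the group, stood at 0.00 with mice of 94.83 to 102.93 CPM in PBS control and 96.80 to 101.77 CPM in PBS acetate.

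Genes for membrane supply gave 0 calls of 6 by edgeR and by DESeq2 in each comparison within 1 diet or 1 injection and in the difference between injections, where 1 in all reached an unadjusted p under 0.05, for the diet in tau-injected mice. With tau averaged over both diets, Wipi2 (0.08, edgeR adjusted p = 0.759) and Atg2b (0.10, adjusted p = 0.793), named after their values were seen, also reached an unadjusted p under 0.05. Atg9a, the membrane protein that seeds autophagosomes, was at 138.7 to 152.3 CPM in PBS control and 132.9 to 142.5 CPM in PBS acetate. Atg9b had the largest estimate of the group, 0.50 (SE 0.28, edgeR adjusted p = 0.325), at a level of 1.78 to 4.50 CPM.

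The Atg8 proteins, which coat the autophagosome and bind receptors, gave 0 calls of 5 by edgeR and by DESeq2 in each of those comparisons, with 0 at an unadjusted p under 0.05. With tau averaged over both diets Gabarapl2, at -0.14, reached an unadjusted p under 0.05 (edgeR adjusted p = 0.773). Gabarapl1 was at 610.8 to 641.1 CPM in PBS control and 590.0 to 630.9 CPM in PBS acetate, a log2 fold change of -0.02 (SE 0.0464, adjusted p = 0.867). Map1lc3a had the largest diet estimate, -0.14 (SE 0.0687, adjusted p = 0.243). Map1lc3b stood at -0.09, Gabarap at -0.07 and Gabarapl2 at -0.01. Sqstm1, whose protein is itself consumed by autophagy, was at 441.6 to 478.3 CPM in PBS control, 428.6 to 457.2 in PBS acetate, 429.5 to 456.4 in tau control and 444.8 to 452.4 CPM in tau acetate. All 4 ranges overlapped, and its diet estimates were -0.07 and 0.02.

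Lamp2, which also guides fusion and chaperone-mediated uptake, had 106.4, 103.9 and 104.4 CPM in PBS control and 89.97, 100.15 and 91.55 CPM in PBS acetate. These did not overlap, but the test missed the threshold (-0.16, SE 0.0584, edgeR adjusted p = 0.125).

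The V-ATPase pumps protons into the lysosome and into synaptic vesicles, with a V1 part that spends ATP and a V0 part in the membrane. In PBS-injected mice, 9 of 9 V1 subunits had estimates below 0 with the diet, and in tau-injected mice 8 of 9, where 49.7% of all genes were. These diet comparisons share no mice. Estimates were below 0 in both for 8 of 9 V1 subunits and 5 of 7 V0 subunits, against 27.1% of all tested genes. Over all members it was 26 of 60, and these V-ATPase subunits are among the 26. Elsewhere it was 5 of 11 conjugation genes, 2 of 6 initiation genes, 1 of 6 membrane supply genes and 1 of 11 cathepsins. It was also 3 of 5 Atg8 genes, 1 of 2 Lamp genes, 0 of 2 receptors and not Tfeb. The changes were small, with V1 medians of -0.09 and -0.15. In the tau-injected mice, 7 of 9 V1 subunits were lower in acetate without overlap, where 7.77% of all genes were, but in the PBS-injected mice 2 of 9 were, where 13.2% of all genes were. A single call was made by edgeR, Atp6v1b2 in PBS-injected mice. DESeq2 called 2 V1 subunits in PBS-injected mice, Atp6v1a and Atp6v1b2, and 1 in tau-injected mice, Atp6v1a.

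Atp6v1b2, the brain form of the subunit that shares the ATP site, had 717.6, 673.5 and 753.9 CPM in PBS control and 612.5, 586.2 and 696.2 CPM in PBS acetate (chromosome 8, 69088646 to 69113711, plus strand). The highest acetate mouse lay above the lowest control mouse, so the groups overlapped (log2 fold change -0.18, SE 0.0599, edgeR adjusted p = 0.0943). The call held in 3 of 12 fits with 1 mouse left out, those without PBS control replicate 2, PBS acetate replicate 3 or tau control replicate 2. Tau control mice had 701.1, 703.5 and 681.2 CPM and tau acetate mice 656.7, 650.9 and 616.2 CPM, without overlap (-0.12, SE 0.0599, adjusted p = 0.502).

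Atp6v1a, the catalytic subunit, was chosen after its values were seen, as were Atp6v1c1, Atp6v1d, Ctsh and Ctsz. It had 761.5, 752.9 and 839.3 CPM in PBS control and 710.3, 684.0 and 745.7 CPM in PBS acetate. In tau control it had 767.0, 804.2 and 787.9 CPM and in tau acetate 703.3, 709.5 and 687.9 CPM. Each acetate mouse was below each control mouse of the same injection. The estimates were -0.14 (SE 0.0513, edgeR adjusted p = 0.132) and -0.17 (SE 0.0513, adjusted p = 0.262), and DESeq2 called both (adjusted p = 0.0926 and 0.0888).

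The diet effect averaged over both injections was a comparison added after the data were seen. By this comparison 6 members were lower on the acetate diet and 0 higher, against a background of 5.76% of genes called (3.81% lower). They were Retreg1 (-0.22), Atp6v1a (-0.15, SE 0.0363, edgeR adjusted p = 0.0319), Atp6v1c1 (-0.15), Atp6v1b2 (-0.15), Atp6v1d (-0.12) and Atg5 (-0.21), so 4 of 9 V1 subunits and 0 of 7 V0 subunits (3 of these at an unadjusted p under 0.05, 2 called by DESeq2). For Retreg1, added by name with earlier results known, the average joins unlike diet estimates. These were -0.49 in PBS-injected and 0.04 in tau-injected mice, and their difference was itself called. Removing either PBS acetate replicate 2 or tau acetate replicate 3, the mouse with the high choroid plexus sum, left 0 members called. Without PBS control replicate 1 or 3 or PBS acetate replicate 1 the count was 2, and without PBS acetate replicate 3 it was 13. Without tau control replicate 3 it was 4. Neuron markers stood beside these genes with a median of -0.14 for the diet in PBS-injected mice, where 2 of 5 were called, and -0.12 in tau-injected mice, where 0 were called (2 at an unadjusted p under 0.05, 2 by DESeq2). The neuron marker sum was 11906 to 12558 CPM in PBS control, 11088 to 12158 in PBS acetate, 12166 to 12379 in tau control and 11399 to 11971 CPM in tau acetate, with none of the 5 at 0. Their part in the V-ATPase values was not tested.

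**Figure D4:**
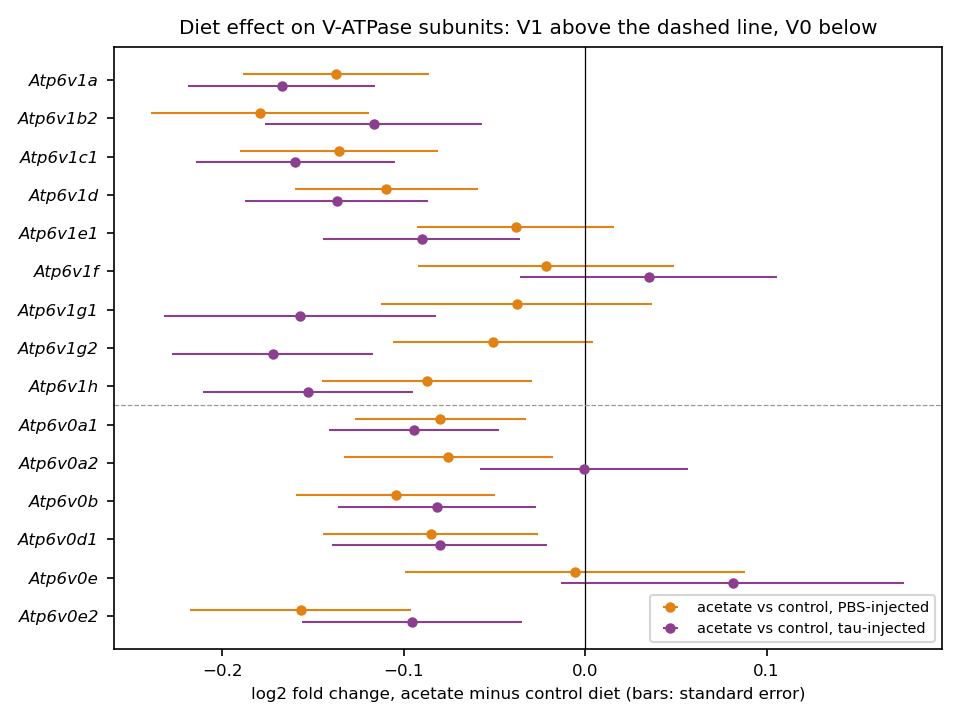
Log2 fold change of acetate against control diet for 15 V-ATPase subunits, with PBS-injected and tau-injected mice side by side and standard errors as bars (Atp6v0c, with 1.08 to 2.56 CPM per mouse, is left out). V1 subunits lie left of 0 in both comparisons except Atp6v1f in tau-injected mice, and Atp6v1a is at -0.14 and -0.17.

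Cathepsins, the proteases of the lysosome, gave 0 calls of 11 by edgeR in every comparison, and DESeq2 called Ctsc for the diet in PBS-injected mice and Ctsz for the diet in tau-injected mice. At an unadjusted p under 0.05 there were 3 for tau on the acetate diet, 2 and 1 for the diet in PBS-injected and tau-injected mice, 2 for the difference between injections and 0 for tau on the control diet. Of all genes, 10.3%, 20.8%, 10.9%, 13% and 9.65% were, in the same order. The signs of their estimates differed between the tau comparisons, which share no mice. With tau on the control diet 10 of 11 were below 0 (median -0.03), against 50.3% of all genes, and with tau on the acetate diet 0 of 11 were below 0 (median 0.13), against 51.2%.

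Ctsc, which activates serine proteases of immune cells, had the largest estimate of all members for the diet in PBS-injected mice. It had 14.79, 13.51 and 16.32 CPM in PBS control and 8.91, 8.30 and 12.90 CPM in PBS acetate, without overlap (-0.58, SE 0.198, edgeR adjusted p = 0.118, DESeq2 adjusted p = 0.0476). Tau control mice had 14.71, 11.47 and 14.65 CPM and tau acetate mice 17.39, 11.31 and 10.98 CPM. Ctsd, the main aspartic protease and the cathepsin with the highest level per length, was at 319.2 to 359.3 CPM in PBS control and 308.3 to 327.3 CPM in PBS acetate, which overlapped (-0.10, SE 0.0561, edgeR adjusted p = 0.308).

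Ctsz, a carboxypeptidase abundant in microglia, was at 40.96, 31.37 and 36.32 CPM in tau control and 47.63, 46.04 and 41.75 CPM in tau acetate, without overlap (0.32, SE 0.0837, edgeR adjusted p = 0.204, DESeq2 adjusted p = 0.066). Ctsh, an aminopeptidase, was at 7.30, 8.61 and 6.58 CPM in PBS acetate and 12.98, 8.41 and 11.11 CPM in tau acetate, which overlapped (0.53, SE 0.171, edgeR adjusted p = 0.277). Microglia markers (6 genes, none at 0) summed to 256 to 260 CPM in PBS control, 255 to 270 in PBS acetate, 265 to 284 in tau control and 277 to 321 CPM in tau acetate. The highest of these sums belonged to tau acetate replicate 1, which was also the highest of its group in Ctsc, Ctsh and Ctsz. Their part in the cathepsin values was not tested.

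**Figure D5:**
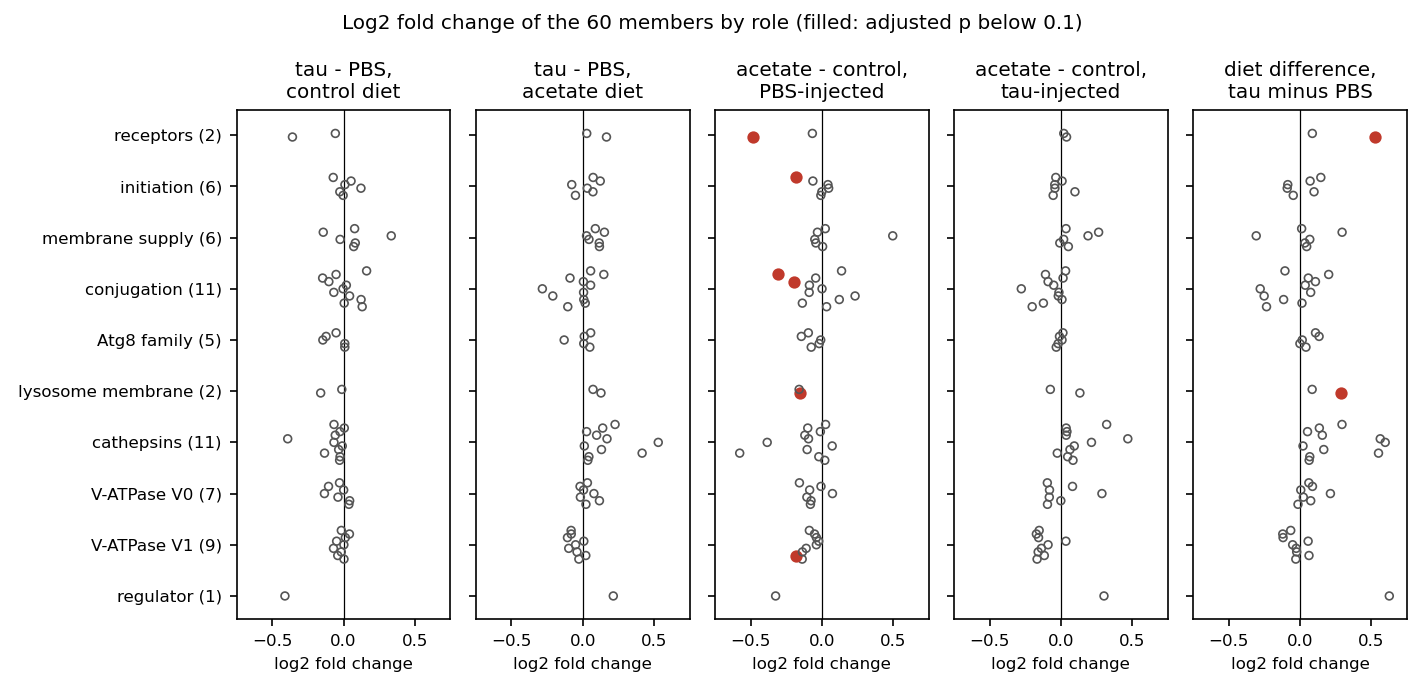
Log2 fold change of each of the 60 members in the 5 comparisons, in rows by role with the number of members in brackets, 1 circle per member, filled where the adjusted p was below 0.1. Filled circles appear for the diet in PBS-injected mice (6, all left of 0) and for the difference in diet effect between injections (2, right of 0).

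Tau injection gave 0 calls among members on either diet by edgeR, where the background was 0.0136% on the control diet and 0.136% on the acetate diet. At an unadjusted p under 0.05 there were 3 members on the control diet, against 9.65% of all genes, and 6 on the acetate diet, against 10.3%. DESeq2 called 1 member on the control diet, Retreg1, with a background of 0.688%, and 0 on the acetate diet, with a background of 0.674%. In the tau-injected mice the acetate diet gave 0 calls by edgeR (background 0.0611%), with 8 members at an unadjusted p under 0.05 (10.9% of all genes), and 2 by DESeq2, Ctsz higher and Atp6v1a lower (background 2.19%). The median member stood at -0.02, 0.03 and 0.00 in these comparisons. Estimates were below 0 for 37 of 60 members with tau on the control diet, against 50.3% of all genes. With tau on the acetate diet it was 16 of 60, against 51.2%. For the diet in tau-injected mice it was 31 of 60, against 49.7%. Tau averaged over both diets, a comparison added after the data were seen, gave 0 calls among members and 0 among all genes by edgeR, with 5 members at an unadjusted p under 0.05 (6.29% of all genes) and 0 called by DESeq2.

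The difference in diet effect between injections was called for Retreg1 and Lamp1 alone, 2 of 60, with a background of 1.56% (1.11% above 0). Leaving out Retreg1, added by name with earlier results known, it was 1 of 59 members (1.69%). By DESeq2 the same 2 genes passed, with a background of 2.8%, and 5 members had an unadjusted p under 0.05, against 13% of all genes. The member median was 0.06 and 18 of 60 were below 0, against 51.2% of all genes. Without tau acetate replicate 1, the mouse with the highest oligodendrocyte and microglia sums of its group, 0 were called, as without PBS acetate replicate 2. Without PBS control replicate 1 or tau control replicate 2 it was 1, Retreg1. The mouse with the high choroid plexus sum, tau acetate replicate 3, could be left out with both calls kept.

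Of 80 further genes of the pathway, listed without the members, all were tested. In PBS-injected mice 8 fell and 3 rose with the diet, 13.75% of the list, where 8.84% of all tested genes were called (4.85% lower, 3.99% higher). DESeq2 called 8 lower and 2 higher. Whether the list differs from other genes was not tested, and the shorter lists within it are given as counts only. Those that fell were Lipa, Atp6ap2, Ids, Sec62, Bnip3, Rtn3, Slc36a1 and Tax1bp1. Lipa, the acid lipase of the lysosome, had 24.39, 21.93 and 25.12 CPM in PBS control and 16.92, 17.38 and 19.04 CPM in PBS acetate (-0.42, SE 0.0969, edgeR adjusted p = 0.0268). Sec62 (-0.20) and Rtn3 (-0.14) are, like Retreg1, receptors for endoplasmic reticulum, and they were 2 of 8 such genes on the list. Bnip3 (-0.27), a receptor for mitochondria, and Tax1bp1 (-0.14), a receptor for ubiquitin-tagged cargo, fell among 7 other receptors. Atp6ap2 (-0.22), an accessory protein of the V-ATPase, and the amino acid carrier Slc36a1 (-0.24) were 2 of 16 genes of the lysosome membrane.

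The 3 that rose encode hydrolases of glycogen and of sulfated sugar chains. Galns was at 11.18, 11.58 and 9.95 CPM in PBS control and 12.66, 14.29 and 15.97 CPM in PBS acetate (0.39, SE 0.118, edgeR adjusted p = 0.0668), Gaa changed by 0.25 and Idua by 0.30. Ids, which like Idua acts on heparan and dermatan sulfate, fell by 0.21 on the log2 scale, so the hydrolase group was split, with 3 higher and 2 lower of 30. Of the initiation partners and the regulators such as Mtor and Tfe3, 0 of 7 and 0 of 12 were called by edgeR and by DESeq2, with 3 and 0 at an unadjusted p under 0.05. Scarb2, the carrier of the enzyme glucocerebrosidase to the lysosome, was the single one of the 80 that edgeR called for the difference in diet effect between injections (0.30, SE 0.0802, edgeR adjusted p = 0.0982), where 1.56% of all genes were called. DESeq2 called Scarb2 (adjusted p = 0.0444) and the cholesterol exporter Npc1 (0.47, adjusted p = 0.0316), named after its values were seen, which missed the threshold by edgeR (adjusted p = 0.102). Scarb2 had 166.4, 161.8 and 173.1 CPM in PBS control and 162.3, 145.0 and 142.1 CPM in PBS acetate. For tau control its values were 145.5, 145.3 and 153.7 CPM, and for tau acetate 169.7, 162.9 and 156.8 CPM. The remaining comparisons gave 0 calls among the 80 by edgeR, with 6, 5 and 14 at an unadjusted p under 0.05 for tau on the control diet, tau on the acetate diet and the diet in tau-injected mice, and 0, 0 and 2 calls by DESeq2.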

How the data were processed

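RNA-seq counts of 12 mice were analysed. The authors aligned reads with STAR (2.5.2a) to GRCm38 and counted reads per gene with HTSeq (0.9.1, reverse strand). The deposited values are raw counts. Here edgeR (4.0.16, R 4.3.3) was run with TMM, filterByExpr (minimum count 10, total 15), 1 mean per group over 12 mice, and a robust quasi-likelihood test. P-values were Benjamini-Hochberg adjusted over 14742 genes and called below 0.1. DESeq2 (1.42.0) is the alternative. Levels are CPM with TMM. Fitting was tested on simulated data. Replicates are the labels' numbered samples. Same-numbered samples did not deviate together (2 of 18 pairs over a correlation of 0.1). Named were Retreg1, every member called, the highest and the most changed member of each role, the Atg8 genes, Sqstm1, Tfeb, Becn1, Lamp1, Lamp2 and up to 10 called pathway genes per comparison, to which 1 more called gene was added. Members and lists were chosen with earlier results of these data known. Exon lengths and coordinates came from GENCODE, promoters from RefSeq. A listed marker gene is not reported here.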

Additional observations from a re-analysis of the deposited data

Results flagged for a closer look

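For 2 members the acetate and control diets differed by unlike amounts in the 2 kinds of injected mice, by the test of the difference itself (edgeR). For Retreg1 the diet effect in tau-injected mice minus that in PBS-injected mice was 0.53 on the log2 scale, made up of 0.04 and -0.49. This gene was added by name with earlier results of these data known, so its call is not independent support. For Lamp1 it was 0.29, made up of 0.13 and -0.16. The 6 oligodendrocyte markers had a median of 1.08 for the same difference, with 0 called by edgeR (6 at an unadjusted p under 0.05) and 6 by DESeq2. The 6 CA3 markers had a median of 0.53, with 0 called by either tool (1 at an unadjusted p under 0.05). Groups held 3 mice each, too few to call a single mouse outlying, but the calls depend on single mice. Leaving out PBS acetate replicate 2 or tau acetate replicate 1 left 0 members called. The call on Lamp1 was also lost without PBS control replicate 1 or tau control replicate 2, where Retreg1 was kept.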

How the results depend on the processing

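DESeq2 called 1 member for tau on the control diet, 2 for the diet in tau-injected mice and 11 for the averaged diet effect. The share of all genes that DESeq2 called for the averaged effect was not computed, so these 11 have no background to compare with. At an adjusted p below 0.05, 1 member remained for the diet in PBS-injected mice, 1 for the difference between injections and 3 for the averaged diet effect. With 1 mouse left out, the counts ran from 1 to 9 for the diet in PBS-injected mice, 0 to 1 in tau-injected mice, 0 to 2 for the difference between injections and 0 to 13 for the averaged diet effect, and stayed at 0 for tau on either diet and averaged over diets. With the replicate number as a block, 5 members were called for the diet in PBS-injected mice (4 of the 6, with Ctsc gained), 2 for the difference between injections and 6 for the averaged diet effect, and the other counts stayed at 0. Size factors of DESeq2 in edgeR changed no count. Without the low-count filter 4 were called for the diet in PBS-injected mice, and on the 6 compared mice alone 5. No named gene past the threshold changed sign under any alternative run. A difference that missed the threshold with 3 mice a group may still be present.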
